A study of Mus musculus with 148 samples.

Results

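The genes described here start between positions 85800000 and 95800000 of mouse chromosome 3 (mm10), a 10 Mb stretch that lies 30 to 40 Mb from an inducible *Xist* transgene on the same chromosome. The stretch was chosen by its weak silencing in wild-type (WT) cells after 3 days of *Xist* RNA induction, so the WT values below describe what the choice used. Of 557 chromosome 3 genes with an allelic ratio in either of the deposited tables, 121 start in the stretch. Leaving out 8 genes by name and 8 predicted or unnamed transcripts gave 105 members. The table of WT and *Suz12* null cells lists 100 of them among its 538 genes, the table of *Lbr* null cells lists 93 among its 517, and 88 are in both.

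Xist RNA coats the chromosome that transcribes it and silences the genes in cis. Spen, bound by the A-repeat of Xist RNA, starts the process by recruiting histone deacetylase activity, and the Polycomb complexes PRC1 and PRC2 add H2AK119ub and H3K27me3. Suz12 is a core subunit of PRC2 without which the complex cannot methylate H3K27. Lbr, the lamin B receptor, is a protein of the inner nuclear membrane that binds B-type lamins and heterochromatin, and it has been proposed to draw the Xist-coated chromosome to the nuclear lamina. An *Xist* transgene on an autosome silences genes that did not evolve under X inactivation, and their response varies from gene to gene.

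The study sequenced chromatin-associated RNA (ChrRNA-seq) of iXist-Chr3, a male mouse embryonic stem cell (mESC) line (P4D7F4, 129S X Cast) in which a multicopy full-length *Xist* transgene under a TetOn promoter integrated at random on the Cast copy of chromosome 3. All libraries used here came from cells grown in differentiating medium, with doxycycline (Dox) for 3 days or without it (NoDox). WT cells and *Suz12* null cells, the latter 1 line, gave 3 NoDox and 3 Dox libraries each. *Lbr* null cells, with the whole gene deleted, gave 1 NoDox and 1 Dox library from each of 3 clones, 4C7A, 4C8E and 4F9F, beside a WT pair of NoDox and Dox libraries, 1 of each, whose titles say mRNA. *Sox2*, the stem cell marker gene carried by chromosome 3, has no allelic ratio in either of the deposited tables used here. It could not be checked, so the identity of the cells rests on the labels.

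The measured quantity is the allelic ratio, the fraction of SNP-covering reads of a gene that come from the *Xist*-bearing Cast allele (Xi) among those of both alleles. A ratio of 0.5 means equal output. Silencing z is the Dox ratio minus the NoDox ratio, so a more negative z is stronger silencing. The study's limits call z below -0.2 high silencing, z between -0.2 and -0.05 low silencing, and z above -0.05 weak or no silencing. The ratio is an average over the cells of a dish, and fewer silenced cells and weaker silencing in each cell cannot be told apart. The deposited tables hold no read counts. The depth behind each ratio is therefore unknown, and precision is taken from the replicate libraries.

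Before induction the members were close to balance. The median NoDox ratio over the 100 members was 0.486, 0.477 and 0.496 in the 3 WT libraries and 0.470, 0.479 and 0.484 in the 3 *Suz12* null libraries. Over 93 members the *Lbr* null clones gave medians of 0.477, 0.484 and 0.500. The medians of all genes lay between 0.468 and 0.475 in these libraries. Mean NoDox ratios fell outside 0.4 to 0.6 in 15 members in WT, 12 in *Suz12* null and 16 in *Lbr* null cells. A z can be no lower than minus the NoDox ratio, whose mean was 0.280 in WT and 0.291 in *Suz12* null cells for *Cdc42se1* (a small Cdc42 effector). *Tchh*, which encodes the hair follicle protein trichohyalin, started at 0.919 in *Lbr* null cells.

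In WT cells, whose silencing chose the stretch, the median z over the members was -0.133, -0.123 and -0.108 in the 3 Dox libraries, a mean of -0.121 ± 0.0130 (SD, n = 3). Over all 538 genes the same medians were -0.168, -0.174 and -0.141. Between 75800000 and 85800000, the flank on the centromeric side, 22 genes had a median z that was lower than that of the zone by 0.0873 ± 0.0164 (SD, n = 3 Dox libraries). Between 95800000 and 105800000, the flank on the telomeric side and nearer to the transgene, 54 genes had a median lower by 0.113 ± 0.0121. Both flanks leave out predicted or unnamed transcripts, as the zone does. Values over all genes keep these transcripts and include the members. By the study's limits 24 members were highly, 62 lowly and 14 weakly silenced in WT, so the zone median falls in the low class and the choice by weak silencing does not describe each member. The limma fit called 67 of the 100 members lower with Dox, where it called 85.5% of all genes. That contrast is the one the zone was selected on, and nothing is read from the count.

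None of the *Suz12* null libraries entered the choice, but the line shares its WT origin and transgene with the cells that did. Its contrast with the flanks is therefore not independent of the choice. The median z of the *Suz12* null libraries over the 100 members was -0.0752, -0.0843 and -0.0429, a mean of -0.0675 ± 0.0218 (SD, n = 3). Dox library 3 was silenced least, and it was also the least silenced over all 538 genes, with a median of -0.0974 against -0.133 and -0.141. Within each library the zone sat above both flanks. The zone median exceeded that of the centromeric flank by 0.159, 0.136 and 0.113, and that of the telomeric flank by 0.154, 0.143 and 0.0949. It exceeded the median of all genes by 0.0583, 0.0570 and 0.0545.

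The *Lbr* null clones did not enter the choice either, but they too share that WT origin and transgene. Their median z over 93 members was -0.156, -0.157 and -0.154, each clone relative to its own NoDox library. These medians have an SD of 0.00151, which is not like that of the other lines, whose z uses the mean of the NoDox libraries. The zone medians of the Dox ratios themselves had an SD of 0.0180 in the clones, 0.0178 in WT and 0.0250 in *Suz12* null cells. In z, the zone median of the clones exceeded that of the centromeric flank by 0.118, 0.114 and 0.117. The difference from the telomeric flank (53 genes) was 0.117, 0.113 and 0.0916, and from all 517 genes it was 0.0385, 0.0346 and 0.0425. The WT pair of the same table had a zone median of -0.169, 0.0912 above the centromeric and 0.110 above the telomeric flank. These medians have no test, because the members were chosen with results of these data known.

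**Figure D1:**
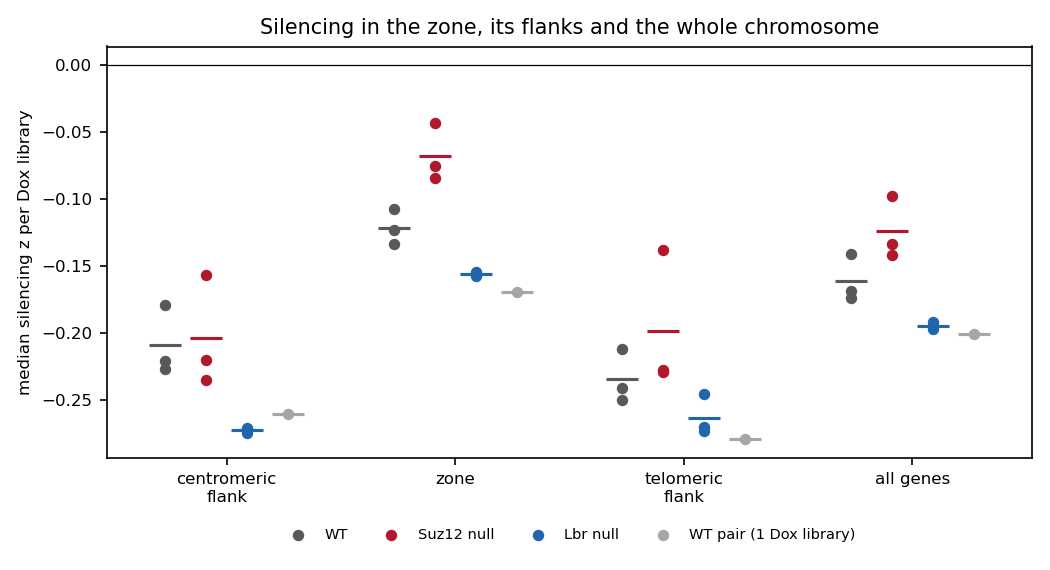
Median silencing z (Dox minus NoDox allelic ratio) of each Dox library, for the centromeric flank (22 genes), the zone (100 members, or 93 for Lbr null and the WT pair), the telomeric flank (54 or 53 genes) and all genes of the table (538 or 517). Points are Dox libraries and short lines are their means; in each library the zone lies nearest to 0.

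Gene by gene, limma called 42 of the 100 members lower with Dox in *Suz12* null cells (Benjamini-Hochberg adjusted p under 0.05 over all genes of the table), against 73.2% of all 538 genes. No member was called higher with Dox, at the adjusted or the unadjusted threshold, and 47 were lower at an unadjusted p under 0.05, against 76.4% of all genes. The mean z was below 0 in 93 members and above 0 in 7, and it was below 0 in 96.8% of all genes. The count leans on single replicates: without replicate 1 of both lines and both conditions it was 26, without replicate 2 it was 25, and without replicate 3 it was 43. By the study's limits 13 members were highly, 51 lowly and 36 weakly silenced, while 29.7% of all genes were highly and 19.0% weakly silenced.

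For *Lbr* null cells limma called 76 of the 93 members lower with Dox, or 81.7%, against 92.5% of all 517 genes. No member was called higher, 77 were lower at an unadjusted p under 0.05 (92.6% of all genes were), and the mean z was below 0 in 92 of 93 (in 99.6% of all genes). High silencing was found for 33 members, low for 50 and weak for 10, while 47.8% of all genes were highly and 5.80% weakly silenced. The WT pair, with 1 library a condition and no test, had 37, 47 and 9 members in these classes.

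Among the 88 members of both tables, 38 were called in both null lines, 36 in *Lbr* null only, 13 in neither and 1 in *Suz12* null only. The first 3 counts are 43.2%, 40.9% and 14.8% of these members, where the 498 genes in both tables gave 74.7%, 18.9% and 5.22%, and 6 genes called in *Suz12* null only. With replicate 1, 2 or 3 left out in every line, 23, 22 and 32 members were called in both null lines, 22, 26 and 19 in neither, and 1, 2 and 6 in *Suz12* null only. The member called in *Suz12* null only was *Gpatch4*, a G-patch protein of the nucleolus, with a z of -0.0545 in *Suz12* null (adjusted p = 0.0230) and -0.0432 in *Lbr* null cells (adjusted p = 0.160). Its *Suz12* null call was lost without replicate 2 or 3 (adjusted p = 0.192 and 0.0978). The tables come from separate experiments, and the difference between the null lines was not tested.

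The members are not spread evenly, and their silencing differs from one Mb to the next (medians of mean z, given with the number of members). In Mb 1, from 85800000 to 86800000, all 5 members were called in both null lines. Their median z was -0.277 in WT, -0.232 in *Suz12* null and -0.296 in *Lbr* null cells. These genes are *Glt28d2* (a glycosyltransferase family member), *Sh3d19* (an SH3 adaptor), *Rps3a1* (a protein of the small ribosomal subunit), *Lrba* (a BEACH-domain protein of vesicle traffic) and *Dclk2* (a doublecortin-like kinase that binds microtubules). *Rps3a1* stood apart from its neighbours with a z of -0.0602 in *Suz12* null and -0.0552 in *Lbr* null cells, both past the test. The first was not past it without replicate 1 or 2 (adjusted p = 0.0529 and 0.0780), nor the other without clone 4C7A or 4C8E (adjusted p = 0.0939 and 0.0671). Mb 2 holds 3 members, *Kirrel* (a cell adhesion protein), *Etv3* (an ETS repressor) and *Arhgef11*, with medians of -0.193, -0.171 and -0.216 in the same order of lines.

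Mb 3, from 87800000 to 88800000, had the median of mean z nearest to 0 of the zone in each line. It holds 24 members, 20 of them in the *Suz12* table and 22 in the *Lbr* table. The median z was -0.0683 in WT, -0.0310 in *Suz12* null and -0.0659 in *Lbr* null cells, and its 3 library medians were -0.0451, -0.0443 and -0.0209 in *Suz12* null and -0.0641, -0.0540 and -0.0961 in *Lbr* null cells. Mb 5 lay nearer to 0 in *Suz12* null Dox library 2 (-0.0422) and in *Lbr* null clone 4F9F (-0.0723). Of the members in Mb 3, 5 of 20 were called in *Suz12* null and 11 of 22 in *Lbr* null cells. Without replicate 1, 2 or 3 the *Suz12* null count was 1, 0 and 6, and without clone 4C7A, 4C8E or 4F9F the *Lbr* null count was 10, 7 and 7. Among *Lbr* null values, 9 of the 10 weakly silenced members of the whole zone start in this Mb, and in *Suz12* null cells 13 of its 20 members were weakly silenced. No member of this Mb was highly silenced in either null line.

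Mb 4, to 89800000, has 24 members (21 in the *Lbr* table) and a median z of -0.185 in WT, -0.0841 in *Suz12* null and -0.185 in *Lbr* null cells. Here 7 of 24 members were called in *Suz12* null (4 without replicate 2) and 18 of 21 in *Lbr* null cells. Mb 5 has 15 members (12 in the *Lbr* table) with medians of -0.0749, -0.0489 and -0.145. Of these 5 of 15 were called in *Suz12* null (2 without replicate 1) and 10 of 12 in *Lbr* null cells (5 without clone 4C7A and 7 without 4C8E). From 90800000 to 92800000 no member starts, although RefSeq places 3 and 32 protein-coding genes in these 2 Mb. The stretch between the end of *S100a13* (90524581) and the start of *S100a11* (93520496) holds 66 RefSeq coding genes, of which 21 are *Lce*, 14 *Sprr* and 11 *S100a* genes, the epidermal differentiation complex whose products build the outer layer of skin. Only *Tchh* among them had a ratio, in the *Lbr* table.

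Telomeric of that gap, Mb 8 holds 3 members, *Tchh*, *S100a11* and *S100a10*. Its median z was -0.302 in WT and -0.244 in *Suz12* null cells over the 2 genes listed there, and -0.483 in *Lbr* null cells over 3, with every gene called in each null line in which it is listed. Mb 9 holds 6 members with medians of -0.132, -0.115 and -0.233, of which 5 were called in *Suz12* null (2 without replicate 1 and 3 without replicate 2) and 6 in *Lbr* null cells. Mb 10, to 95800000, holds 25 members (21 in the *Lbr* table) with medians of -0.119, -0.0740 and -0.164. There 11 of 25 were called in *Suz12* null (6 without replicate 1 or 2) and 20 of 21 in *Lbr* null cells. Apart from Mb 3, 4 and 10, these hold fewer than 20 genes each, so a single gene can move their medians.

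**Figure D2:**
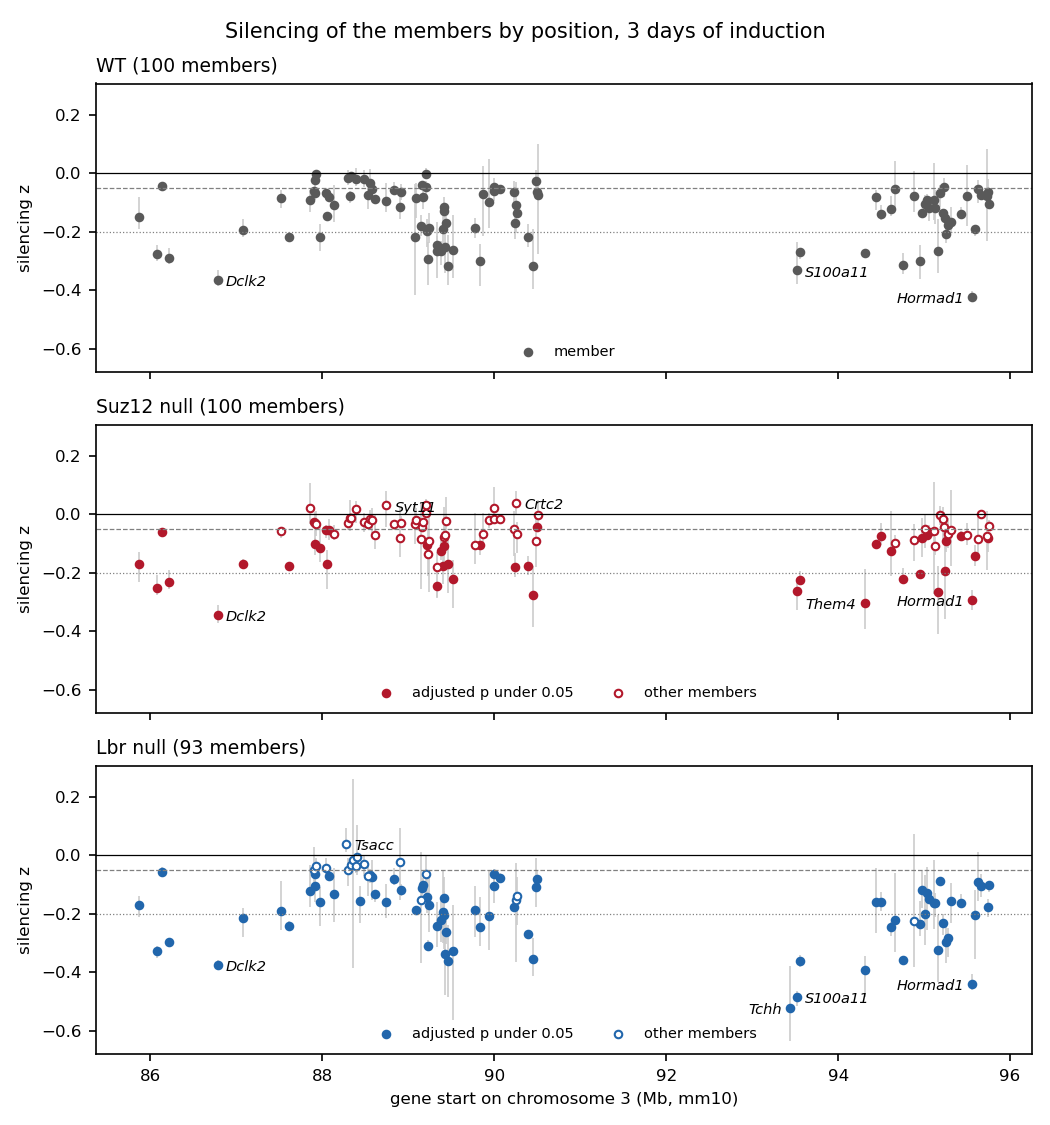
Silencing z of each member against its start on chromosome 3 (Mb, mm10) in WT, Suz12 null and Lbr null cells; points are means, grey lines span the 3 Dox libraries (3 clones for Lbr null), and dashed and dotted lines mark -0.05 and -0.2. Filled points in the null lines have an adjusted p under 0.05 and open points do not; the test is not marked in WT, and no member starts between 90800000 and 92800000.

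At the ends of the zone, the rule is a position and not a value. The last genes outside the centromeric end are *Pet112*, encoding a subunit of a mitochondrial amidotransferase, with a z of -0.132 in WT, -0.147 in *Suz12* null and -0.122 in *Lbr* null cells, and *Fam160a1*, with -0.261, -0.205 and -0.306. The first inside are *Glt28d2*, with -0.148, -0.169 and -0.171, and *Sh3d19*, with -0.277, -0.251 and -0.326. The values on both sides of this limit overlap. At the telomeric end the last genes inside are *Tars2* (mitochondrial threonyl-tRNA synthetase), with -0.0628, -0.0814 and -0.178, and *Rprd2* (a protein that binds the tail of RNA polymerase II), with -0.107, -0.0387 and -0.103. The first outside are *Prpf3* (a splicing factor of the U4/U6 snRNP), with -0.0899, -0.0721 and -0.0916, and *Anp32e* (an H2A.Z chaperone), with -0.110, -0.130 and -0.263.

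The strongest silencing in *Suz12* null cells was that of *Dclk2*. Its ratio was 0.582, 0.554 and 0.546 in the NoDox and 0.189, 0.214 and 0.249 in the Dox libraries, a z of -0.343 (adjusted p = 6.1e-07). All Dox libraries lay below all NoDox libraries, and the same held in WT (z = -0.365) and in *Lbr* null cells, where the clones fell from 0.557, 0.539 and 0.549 to 0.165, 0.167 and 0.190 (z = -0.374, adjusted p = 4.92e-06). Its deposited span of 135 kb is among the longer ones of the zone.

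*Them4* encodes an acyl-CoA thioesterase. In *Suz12* null cells its ratio was 0.591, 0.525 and 0.500 without and 0.208, 0.147 and 0.351 with Dox (z = -0.303, adjusted p = 0.000153). In the *Lbr* null clones it fell from 0.468, 0.511 and 0.529 to 0.122, 0.0278 and 0.182 (z = -0.392, adjusted p = 0.000192). Groups did not overlap in either line, but *Suz12* null Dox library 3 kept a higher ratio than the other two.

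*Hormad1* encodes a HORMA-domain protein of the meiotic chromosome axis. Its ratio started above balance, at 0.60, 0.689 and 0.65 in *Suz12* null cells, and fell to 0.318, 0.357 and 0.387 (z = -0.292, adjusted p = 5.09e-06). The *Lbr* null clones fell from 0.644, 0.598 and 0.667 to 0.184, 0.193 and 0.212 (z = -0.440, adjusted p = 9.07e-06). In WT, where it was the most silenced of the members in both tables, z was -0.424. Next in *Suz12* null cells was *Npr1*, a natriuretic peptide receptor with guanylyl cyclase activity, whose ratio went from 0.692, 0.680 and 0.591 to 0.385, 0.269 and 0.476 (z = -0.278, adjusted p = 0.00632). Without replicate 1 or 2 its z was -0.263 and -0.211 and the call was lost (adjusted p = 0.0673 and 0.0711).

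The lowest *Lbr* null z among members of both tables belonged to *S100a11*, a calcium-binding protein of the S100 family. The clones fell from 0.631, 0.638 and 0.783 to 0.167, 0.167 and 0.268 (z = -0.483, adjusted p = 0.000189). In *Suz12* null cells the ratio went from 0.641, 0.603 and 0.531 to 0.375, 0.342 and 0.265 (z = -0.264, adjusted p = 0.000296). The gene started above balance in both lines and ended below it in every Dox library. *Pmvk*, the phosphomevalonate kinase of isoprenoid synthesis, came after *Hormad1*, *Dclk2* and *S100a11* in WT among members of both tables (z = -0.317). Its z was -0.168 in *Suz12* null (adjusted p = 0.0120) and -0.361 in *Lbr* null cells (adjusted p = 0.000939). Without replicate 1 its *Suz12* null z was -0.127 (adjusted p = 0.0899).

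The 13 members that were highly silenced in *Suz12* null cells were also highly silenced in WT and in *Lbr* null cells, out of the 88 in both tables. Besides *Sh3d19*, *Lrba*, *Dclk2*, *Npr1*, *S100a11*, *Them4* and *Hormad1* they are *Adam15* (a membrane metalloprotease), *Kcnn3* (a calcium-activated potassium channel), *S100a10* (the partner of annexin A2), *Cgn* (cingulin of tight junctions), *Rfx5* (a regulator of MHC class II genes) and *Sema6c* (a transmembrane semaphorin). All 13 passed the test in both null lines. Leaving out a replicate changed this for *Npr1* (without replicate 1 or 2 in *Suz12* null cells, adjusted p = 0.0673 and 0.0711) and for *Kcnn3*, which missed the threshold without replicate 2 in *Suz12* null (adjusted p = 0.0908) and without clone 4C8E or 4F9F in *Lbr* null cells (adjusted p = 0.0804 and 0.176), and there also on the logit scale (adjusted p = 0.109). WT and *Suz12* null cells share a table, and the WT values entered the choice of the zone, so the overlap is a description.

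At the other end, 7 members had a mean z above 0 in *Suz12* null cells, none of them past the test. The highest was *Crtc2*, a CREB coactivator, with NoDox ratios of 0.375, 0.333 and 0.359 and Dox ratios of 0.40, 0.353 and 0.435 (z = 0.0401, adjusted p = 0.445). The groups overlapped, and the mean was higher with Dox. In the *Lbr* null clones *Crtc2* went from 0.434, 0.625 and 0.441 to 0.367, 0.262 and 0.417 (z = -0.151, adjusted p = 0.0611), a fall carried mostly by clone 4C8E.

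*Syt11*, a synaptotagmin of membrane traffic, had a z of 0.0305 in *Suz12* null cells (adjusted p = 0.584), with 0.317, 0.513 and 0.433 before and 0.378, 0.477 and 0.500 after induction. In *Lbr* null cells it was called, with 0.489, 0.432 and 0.450 falling to 0.273, 0.264 and 0.351 (z = -0.161, adjusted p = 0.00218). *Prcc*, linked to splicing and to renal cell carcinoma fusions, showed the same contrast, with a z of 0.0230 (adjusted p = 0.579) in *Suz12* null and -0.121 (adjusted p = 0.0194) in *Lbr* null cells. The latter call was lost without clone 4C8E (adjusted p = 0.120) or 4F9F (adjusted p = 0.0658). In the *Suz12* null Dox libraries the z of *Prcc* was -0.0325, -0.00382 and 0.105, so its mean above 0 came from library 3 alone. *Hax1*, an anti-apoptotic protein of mitochondria, had a z of 0.0203 (adjusted p = 0.555) in *Suz12* null and -0.104 (adjusted p = 0.0105) in *Lbr* null cells. Its *Suz12* null z was -0.0288, -0.00477 and 0.0945 in the Dox libraries, so here too library 3 alone set the sign. Whether these genes differ between the null lines was not tested.

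Weak or no silencing in all 3 lines was found for 5 of the 88 members of both tables, all within Mb 3. They are *Isg20l2* (a nucleolar exonuclease), *Cct3* (a subunit of the chaperonin TRiC), *Smg5* (a factor of nonsense-mediated decay), *Pmf1* (a kinetochore protein) and *Lmna* (lamins A and C). In the WT pair of the *Lbr* table *Cct3* and *Smg5* were again weakly silenced, while *Isg20l2* (-0.0619), *Pmf1* (-0.0716) and *Lmna* (-0.113) were in the low class. *Smg5* stayed near balance in every library. In *Suz12* null cells its ratios were 0.472, 0.475 and 0.508 without and 0.468, 0.477 and 0.474 with Dox (z = -0.0117, adjusted p = 0.487), and in the *Lbr* null clones 0.528, 0.507 and 0.490 without and 0.495, 0.460 and 0.470 with Dox (z = -0.0334, adjusted p = 0.0977). Each clone fell by a small step, and the limma test was not passed.

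*Lmna*, whose product forms the lamina beside the B-type lamins that Lbr binds, had *Lbr* null ratios of 0.323, 0.404 and 0.304 without and 0.309, 0.403 and 0.234 with Dox (z = -0.0281, adjusted p = 0.596). In *Suz12* null cells z was -0.0249 (adjusted p = 0.541) and in WT -0.0198. The NoDox ratio was lower in the *Lbr* null clones (mean 0.343) than in *Suz12* null cells (mean 0.488). *Isg20l2* had a z of -0.0348 in *Suz12* null and -0.0349 in *Lbr* null cells. *Cct3*, with an RPKM of 84.3 among the most expressed members, had -0.0305 and -0.0485. None of these values passed the test.

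*Msto1*, which acts in mitochondrial distribution, had the highest *Lbr* null z among members of both tables, -0.0215 (adjusted p = 0.701). Its clones disagreed, with 0.328, 0.455 and 0.364 before and 0.321, 0.302 and 0.458 after induction, so clone 4F9F rose, 4C8E fell and 4C7A held.

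Of the 12 members listed only in the *Suz12* table, 3 were called in *Suz12* null cells. *Slc39a1*, a zinc importer, fell from 0.500, 0.394 and 0.446 to 0.233, 0.250 and 0.314 (z = -0.181, adjusted p = 0.00158). *Apoa1bp*, which encodes an epimerase that repairs NAD(P)H, had a z of -0.169 (adjusted p = 0.0161), and *Bnipl*, a BNIP2-like protein, -0.193 (adjusted p = 0.0400). Both lost the call without replicate 1 (adjusted p = 0.0748 and 0.20) or 2 (adjusted p = 0.161 and 0.0974). *Bnipl* also lost it with the replicate as a block (adjusted p = 0.0528) and with only the libraries compared in the fit (adjusted p = 0.0764). The other 9, *Mtx1*, *S100a13*, *Rusc1*, *Tmem79*, *Efna4*, *Il6ra*, *Cdc42se1*, *Ctsk* and *Ecm1*, had z values from -0.181 (*Efna4*, an ephrin) to 0.0320 (*Mtx1*, a metaxin of mitochondrial import). Of these *Efna4* was called without replicate 1 (z = -0.276, adjusted p = 0.00411), and *Ctsk* (z = -0.120, adjusted p = 0.0300) and *Cdc42se1* (z = -0.0763, adjusted p = 0.0474) without replicate 3.

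Of the 5 members listed only in the *Lbr* table, *Tchh* and *Sema4a* were called. *Tchh* fell from 0.968, 0.837 and 0.952 to 0.333, 0.458 and 0.40 (z = -0.522, adjusted p = 9.67e-05), the lowest z of any member in *Lbr* null cells. *Sema4a*, a transmembrane semaphorin, had a z of -0.156 (adjusted p = 0.0177; without clone 4F9F adjusted p = 0.0630). The other 3 are *Tsacc* (a testis co-chaperone), *Paqr6* (a membrane progestin receptor) and *Slc25a44* (a mitochondrial carrier), with z values of 0.0396, -0.0155 and -0.00640. The clones of *Paqr6* disagreed, with 0.238, 0.522 and 0.667 before and 0.500, 0.60 and 0.280 after induction, and without 4C7A or 4F9F its z was -0.154 and 0.170. Without clone 4F9F *Slc25a44* had a z of -0.0618 (adjusted p = 0.0390). *Tsacc* is the single member above 0 in *Lbr* null cells, with 0.377, 0.432 and 0.423 before and 0.390, 0.525 and 0.436 after induction (adjusted p = 0.336).

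Silencing in *Suz12* null cells was compared with that in WT by the limma interaction, the *Suz12* null z minus the WT z. The WT libraries chose the zone, so this difference is not independent of the rule. By limma, 0 of 100 members passed an adjusted p under 0.05, against 0.372% of all 538 genes in the direction of weaker silencing in *Suz12* null cells. At an unadjusted p under 0.05, 12 members were weaker, against 12.3% of all genes, and 0 stronger in *Suz12* null cells. The study's methods name a test over replicates but not the values it took, so calls made with it here need not match the study's. The methods' test, applied here to z per Dox library, called 17 members weaker, against 19.7% of all genes, and 1 stronger at an unadjusted p under 0.05. After adjustment it called 0. In this form it takes the NoDox mean as known and so ignores how far the NoDox replicates differ. The difference was above 0 in 80 of the 100 members and in 79.0% of all genes.

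The largest difference was that of *She*, an SH2 adaptor expressed at an RPKM of 0.812. Its WT ratio went from 0.644, 0.656 and 0.642 to 0.375, 0.262 and 0.403, and its *Suz12* null ratio from 0.615, 0.553 and 0.565 to 0.481, 0.439 and 0.500. The difference was 0.196 (adjusted p = 0.146), and in both lines Dox and NoDox libraries did not overlap. Next came *Rusc1*, listed only in the *Suz12* table, with 0.186 (adjusted p = 0.484) and *Suz12* null ratios of 0.385, 0.526 and 0.548 before and 0.448, 0.385 and 0.526 after induction. *Pygo2*, a PHD-finger cofactor of Wnt signalling, differed by 0.181 (adjusted p = 0.368). Its *Suz12* null ratios overlapped, with 0.469, 0.531 and 0.514 before and 0.481, 0.431 and 0.386 after induction, and its WT ratios were 0.646, 0.425 and 0.571 before and 0.207, 0.259 and 0.418 after. *Trim46*, a tripartite motif protein that organises microtubules, differed by 0.159 (adjusted p = 0.419). Without replicate 1 the differences of *Pygo2* and *Trim46* were 0.0457 and 0.00732, and without replicate 2 that of *Trim46* was 0.303.

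In the other direction the differences were smaller. *Mrpl24*, of the large mitochondrial ribosomal subunit, differed by -0.0757 (adjusted p = 0.419). Its *Suz12* null ratio fell from 0.535, 0.455 and 0.412 to 0.388, 0.329 and 0.383 and its WT ratio from 0.411, 0.458 and 0.413 to 0.385, 0.435 and 0.387. *Snapin*, a SNARE-associated protein, differed by -0.0616 (adjusted p = 0.771) and *BC021767* by -0.0434 (adjusted p = 0.751). Without replicate 1 the difference of *Snapin* turned to 0.0416 and without replicate 2 it was -0.152, and that of *BC021767* was -0.00432 without replicate 2 and -0.0717 without 3. None of these 7 passed the adjusted threshold, which does not show that their silencing was the same in both lines.

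The members were also grouped by function. Of 10 measured genes of RNA processing and decay, 2 were called in *Suz12* null and 7 in *Lbr* null cells, with a median z of -0.0367 and -0.0913. *Ints3*, a subunit of the Integrator complex, was the most silenced of these (z = -0.178, adjusted p = 0.000202 in *Suz12* null), and *Prcc* the least. Of 5 genes of the ribosome, the mitochondrial ribosome and translation, 4 were called in *Suz12* null and 5 in *Lbr* null cells, and the median z was -0.0814 and -0.117, from *Mrpl9* (-0.103 in *Suz12* null, adjusted p = 0.0111) to *Dap3* of the small mitochondrial subunit (-0.0294, adjusted p = 0.156). Without replicate 1 or 2, 0 of these 5 were called in *Suz12* null cells by limma, and 3 were called in *Lbr* null cells whichever clone was left out. For the RNA genes the *Suz12* null count was 1 without replicate 2.

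Among 7 genes of the proteasome, ubiquitin and protein folding, *Psmd4*, the ubiquitin receptor of the proteasome, was the only member called in *Suz12* null cells (z = -0.0698, adjusted p = 0.0485; between 0.0558 and 0.189 whichever replicate was left out, 0.0567 on the logit scale and 0.0792 with only the libraries compared in the fit), and 5 were called in *Lbr* null cells. The latter include *Psmd4* (z = -0.129, adjusted p = 0.0476), which missed the threshold with the clone as a block (adjusted p = 0.0558), on the logit scale (adjusted p = 0.0530) and without clone 4C8E or 4F9F (adjusted p = 0.102 and 0.0628). *Trim46* was the lowest in *Suz12* null cells (-0.136, adjusted p = 0.0741; without replicate 1 -0.229, adjusted p = 0.0185) and *Ubqln4*, a ubiquilin that delivers substrates to the proteasome, the highest (-0.0146, adjusted p = 0.570). Of 10 genes of membrane traffic, *Lrba* (z = -0.232, adjusted p = 5.58e-06) and *Golph3l*, a Golgi protein (z = -0.141, adjusted p = 0.00108), were called in *Suz12* null cells. In *Lbr* null cells 9 of these 10 were called, all but *Dennd4b*, an exchange factor for Rab10 (z = -0.139, adjusted p = 0.0510). *Dennd4b* passed with the clone as a block (adjusted p = 0.0245), over NoDox ratios of 0.2 to 0.8 (adjusted p = 0.0498) and without clone 4F9F (adjusted p = 0.0150), and over all alternatives its adjusted p ran from 0.0150 to 0.234. With that block 8 of the 10 were called, and without clone 4C8E 6. The median z of the traffic genes was -0.0578 in *Suz12* null and -0.165 in *Lbr* null cells.

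Metabolic genes gave 7 calls of 10 in *Suz12* null and 8 of 9 in *Lbr* null cells, with medians of -0.0869 and -0.185. The first count was 3 without replicate 1 and 4 without replicate 2. *Them4* was the most silenced of these in *Suz12* null cells. Of the genes of mitochondrial membranes and apoptosis, *Bnipl* was the only call among 5 in *Suz12* null cells. That call was lost without replicate 1 or 2, with the replicate as a block and with only the libraries compared. In *Lbr* null cells 2 of 4 were called. One of these 2 was *Mcl1*, the anti-apoptotic BCL2 relative with the highest RPKM of the members (175). Its *Suz12* null ratios were 0.541, 0.562 and 0.584 without and 0.574, 0.554 and 0.558 with Dox (z = -0.000358, adjusted p = 0.986), whereas the *Lbr* null clones fell from 0.537, 0.536 and 0.510 to 0.396, 0.430 and 0.445 (z = -0.104, adjusted p = 0.00182).

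Receptors, adhesion and matrix genes gave 4 calls of 8 (2 without replicate 2) and 5 of 5, with medians of -0.138 and -0.216, from *Npr1* to *Il6ra*, the interleukin 6 receptor (-0.0685 in *Suz12* null, adjusted p = 0.464). The 3 genes of transport and ion channels in the *Suz12* table had 2 calls, *Kcnn3* and *Slc39a1* (1 call without replicate 2), and in *Lbr* null cells 1 of 2 (0 by limma on the logit scale and without clone 4C8E or 4F9F). The 3 S100 genes had 2 calls in *Suz12* null cells, *S100a11* and *S100a10*, and both of these were called in *Lbr* null cells.

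Of 13 transcription factors and cofactors, 3 were called in *Suz12* null cells, namely *Zbtb7b* (z = -0.126, adjusted p = 0.0284), *Rfx5* (z = -0.205, adjusted p = 0.000754) and *Arnt*, the partner of hypoxia-inducible factors (z = -0.0748, adjusted p = 0.00365). The call of *Zbtb7b* was lost without replicate 1 or 3 (adjusted p = 0.183 and 0.192), that of *Arnt* without 1 or 2 (adjusted p = 0.0868 and 0.0750). In *Lbr* null cells 11 of the 13 were called, and their median z was -0.0570 in *Suz12* null and -0.164 in *Lbr* null cells. Of 4 genes of the nuclear lamina and mitosis, 0 were called by limma in *Suz12* null cells, with 0 also at an unadjusted p under 0.05, and 2 in *Lbr* null cells, *Cks1b* and *Ensa*. The *Lbr* null call of *Ensa* (z = -0.0909, adjusted p = 0.0444) was lost with the clone as a block (adjusted p = 0.0865), on the logit scale (adjusted p = 0.0528) and without clone 4C7A or 4C8E (adjusted p = 0.238 and 0.234), and without 4F9F its adjusted p was 0.00251. Without replicate 3, 1 was called in *Suz12* null cells, *Cks1b*, a subunit of cyclin-dependent kinase complexes (z = -0.148, adjusted p = 0.0184). The *Suz12* null values ran from *Ensa*, an inhibitor of the mitotic phosphatase PP2A-B55 (z = -0.0847, adjusted p = 0.0738), to *Pmf1* (z = 0.0185, adjusted p = 0.539). These lists are small, and over all genes 73.2% and 92.5% were called in the null lines.

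Span, RPKM and promoter CpG, which the choice of the zone did not use, were set beside z. So were the NoDox ratio, a part of z, and the distance from the transgene, the position that bounds the zone. The members are short genes, with a median span of 11.7 kb against 30.8 kb over all 557 genes, and their median RPKM was 15.0 against 10.8 over the 538 genes with a value. Across the members, z rose with RPKM, so that more expressed genes were less silenced. Spearman's correlation was 0.236 over 100 members in *Suz12* null cells (0.0921 to 0.251 in single Dox libraries) and 0.465 over 88 members in *Lbr* null cells (0.337 to 0.370 in single clones). Over all genes the correlations were 0.323 and 0.305. The members share libraries and neighbourhoods, and genes are not independent replicates, so these are descriptions without a p.

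Split by RPKM into 3 groups of 34, 33 and 33, the members of the lowest group, with 0.510 to 9.47 RPKM, had a median z of -0.0888 in *Suz12* null and -0.223 in *Lbr* null cells. Those with 21.6 to 175 RPKM had -0.0535 and -0.104. The lowest and highest groups lay further apart in *Lbr* null than in *Suz12* null cells. RPKM values belong to the *Suz12* table, and 25 and 33 members of these groups have an *Lbr* null ratio.

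**Figure D3:**
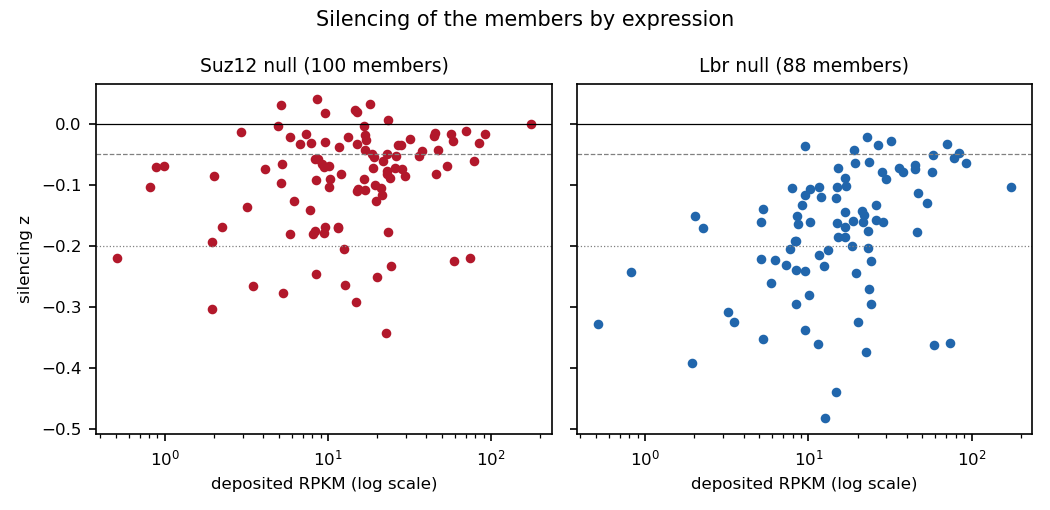
Silencing z of each member against its deposited RPKM (log axis) in Suz12 null (100 members) and Lbr null cells (88 members with an RPKM); dashed and dotted lines mark -0.05 and -0.2. Spearman's correlation across members was 0.236 and 0.465.

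Span and z had correlations of -0.0890 in *Suz12* null and -0.123 in *Lbr* null cells across members, nearer to 0 than over all genes (-0.30 and -0.278). The NoDox ratio and z had correlations of -0.345 and -0.334 across members, which the construction of z favours, since a gene that starts higher can fall further. Over all genes they were -0.213 and -0.274. Across members, single *Suz12* null Dox libraries gave -0.363 to -0.192 and single clones -0.322 to -0.216. Distance from the transgene had a correlation with z of 0.118 in *Suz12* null and 0.337 in *Lbr* null cells within the zone, against 0.464 and 0.434 over the chromosome. Within the zone, single *Suz12* null Dox libraries gave 0.0396 to 0.112 and single clones 0.200 to 0.348.

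Promoters were taken from RefSeq (GRCm38.p6, the assembly that mm10 names), as 250 bases before to 50 after the start of a gene. Of the 105 members 87 had one. The window held a median of 19 CpG dinucleotides in the members. It held 20 over 449 genes, those of the 557 with an allelic ratio that had a promoter. Over all 32851 promoters of the mouse, which are not limited to genes with a ratio here, the median was 7. CpG number and z had correlations of 0.0147 over 83 members in *Suz12* null and 0.0143 over 76 in *Lbr* null cells. The sign was not stable, with -0.169 to 0.0534 in single *Suz12* null Dox libraries and -0.0410 to 0.0600 in single clones. The promoters of the 2 most silenced members in *Suz12* null cells and of *Syt11*, with a z above 0, are printed to show that CpG-rich and CpG-poorer windows occur there. Each is given 5′ to 3′ on the strand of the gene, with each CpG in capitals. *Dclk2* (chr3:86920835-86921134, minus strand) has 27 CpG, *Them4* (chr3:94309882-94310181, plus strand) 25 and *Syt11* (chr3:88772550-88772849, minus strand) 14.
Dclk2: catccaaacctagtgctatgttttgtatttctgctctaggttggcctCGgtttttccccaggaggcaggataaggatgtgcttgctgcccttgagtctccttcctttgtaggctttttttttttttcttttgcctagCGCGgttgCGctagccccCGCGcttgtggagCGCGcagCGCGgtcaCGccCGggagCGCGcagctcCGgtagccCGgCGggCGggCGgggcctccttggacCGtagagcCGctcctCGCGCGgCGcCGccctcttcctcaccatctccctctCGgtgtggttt
Them4: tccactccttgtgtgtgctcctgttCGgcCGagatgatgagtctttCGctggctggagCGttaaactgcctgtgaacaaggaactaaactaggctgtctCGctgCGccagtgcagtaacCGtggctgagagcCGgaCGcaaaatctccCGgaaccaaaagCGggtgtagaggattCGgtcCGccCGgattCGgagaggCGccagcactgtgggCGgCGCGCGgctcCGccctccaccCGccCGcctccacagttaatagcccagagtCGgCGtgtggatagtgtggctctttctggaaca
Syt11: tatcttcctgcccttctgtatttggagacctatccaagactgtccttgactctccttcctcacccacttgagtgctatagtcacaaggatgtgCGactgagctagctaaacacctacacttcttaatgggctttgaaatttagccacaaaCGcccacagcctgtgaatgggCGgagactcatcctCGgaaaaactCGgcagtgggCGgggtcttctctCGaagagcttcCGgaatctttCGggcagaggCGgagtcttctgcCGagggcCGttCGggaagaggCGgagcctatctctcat

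These sequences describe the genes, and no motif was searched in them. Within the zone, genes with 25 or more CpG in the window include both *Dclk2* and *Mcl1* (33 CpG), which were silenced by -0.343 and -0.000358 in *Suz12* null cells.

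The spread between replicates sets what can be seen for a single member. The median SD of a member's ratio over the 3 Dox libraries was 0.0409 in *Suz12* null and 0.0366 in *Lbr* null cells, and over the NoDox libraries 0.0389 and 0.0400. The highest SD was 0.262, for *Efna4* in NoDox *Suz12* null cells. A z of -0.05, the limit of weak silencing, is near the size of the median SD, so the class of a member close to it is not firmly set by 3 libraries.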

How the data were processed

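The authors discarded rRNA reads (bowtie2 2.3.2), mapped the others with STAR 2.4.2a to mm10 with SNP positions masked, assigned them to alleles with SNPsplit and counted per strand with featureCounts. Where a gene had 10 or more reads over SNPs, the authors deposited the fraction Xi/(Xi + Xa) per library. The RPKM that the authors deposited once per gene in the *Suz12* table does not name its library. The deposited means, differences and p-values per gene were not used.

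Ratios were fitted with limma (version 3.58.1, R 4.3.3; lmFit, then eBayes, a coefficient per line and condition, all genes of a table together, Benjamini-Hochberg adjustment over the table, p under 0.05). By their titles, the NoDox and Dox libraries of an *Lbr* null clone pair. The main fit did not use this pairing, and a fit with the clone as a block was an alternative. Medians, correlations and plots were made with Python 3.11.15 (matplotlib 3.10.9, scipy 1.17.1, pandas 2.3.3, numpy 2.4.6). The 105 members were matched to RefSeq by symbol (102) or synonym (3). Deposited starts were read as counting from 0 and are given counting from 1.

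Named genes are the 4 most and 4 least silenced members of both tables in each line, the 3 largest *Suz12* null minus WT differences of such members in each direction, the 2 nearest genes on each side of each end, the extremes of each list, members of 1 table, and members of small counts. Results for 1 named gene and 1 list are not reported here. *Mcl1*, *Kcnn3*, *Cks1b*, *Cdc42se1* and the difference of *Rusc1* were singled out after their values were seen. The members and lists were chosen with earlier results of these data known. The labels' growth notes give 24 hours of Dox, and their titles, used here, 3 days. Alternatives were the logit of the ratio, a replicate block, leaving out each replicate, fitting only the libraries compared, NoDox ratios of 0.2 to 0.8, means for medians, gene midpoints, all genes of the range, genes in both tables, and z as a share of the NoDox ratio.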

Additional observations from a re-analysis of the deposited data

Results flagged for a closer look

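*Mtx1* was singled out because its mean z went opposite ways in the WT and *Suz12* null lines. All 3 WT Dox libraries lay below the mean of the WT NoDox libraries, and all 3 *Suz12* null Dox libraries lay above the mean of theirs. The WT ratios were 0.395, 0.667 and 0.426 without and 0.468, 0.411 and 0.468 with Dox (z = -0.0467). The *Suz12* null ratios were 0.294, 0.549 and 0.468 without and 0.491, 0.455 and 0.462 with Dox (z = 0.0320). Dox and NoDox libraries overlapped in both lines, and replicate 2 of WT NoDox and replicate 1 of *Suz12* null NoDox stood apart from the others of their group. Without replicate 2 the WT Dox libraries (0.468 and 0.468) lay above the NoDox libraries (0.395 and 0.426). Without replicate 1 the *Suz12* null Dox libraries (0.455 and 0.462) lay below the NoDox libraries (0.549 and 0.468). The direction in each line thus turned when 1 replicate was left out. The difference between the lines, 0.0787, did not pass the limma test (adjusted p = 0.744). It was 0.0564 without replicate 1, 0.0373 without replicate 2 and 0.142 without replicate 3. *Mtx1* had the highest SD of any member among the WT NoDox libraries, 0.149. It has no ratio in the *Lbr* table.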

How the results depend on the processing

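The count of members called in *Suz12* null cells (42) depended on the replicates, from 25 without replicate 2 to 43 without replicate 3. Fewer libraries by construction leave less to estimate the spread, but leaving out replicate 1 or 2 lowered the count and leaving out replicate 3 did not; the cause was not tested. The count in *Lbr* null cells (76) ran from 62 to 67 and that in WT (67) from 48 to 60 when a replicate was left out. With the logit of the ratio the counts in *Suz12* null, *Lbr* null and WT were 40, 71 and 66, and with only the libraries compared 37, 76 and 71. With NoDox ratios of 0.2 to 0.8 they were again 42, 76 and 67, but the *Lbr* null members differed. That setting left out *Tchh*, called in the main fit, whose mean *Lbr* null NoDox ratio was 0.919. It newly called *Dennd4b* by limma (adjusted p = 0.0498). For the *Suz12* null against WT difference the methods' test on z per Dox library, a form chosen here because the study's methods do not give its input, called 18 members at an unadjusted p, 17 weaker and 1 stronger, where limma adjusted gave 0 under every alternative.

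With the replicate as a block the counts were 40 in *Suz12* null and 69 in WT, and with the clone as a block 73 in *Lbr* null cells, where *Dennd4b* was newly called, *Ensa*, *Psmd4*, *Snapin* and *Ssr2* missed the threshold and no other member changed. The labels do not say that replicates of the *Suz12* table are pairs. Of 18 correlations between residual ratios of equally numbered libraries, from -0.104 to 0.164, 2 were above 0.1, so the numbers were not taken as pairing.

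Taking means over genes moved the zone value beyond the SD of the libraries, to -0.139 in WT, -0.0920 in *Suz12* null and -0.175 in *Lbr* null cells, and the difference from the telomeric flank to 0.0893 in WT and 0.0861 in *Lbr* null cells. The difference from the centromeric flank in *Lbr* null cells became 0.122 with means and 0.109 over genes in both tables. In *Lbr* null cells, where the z medians of the clones have an SD of 0.00151, the zone median was -0.151 over all genes of the range and -0.158 over genes in both tables. As a share of the NoDox ratio, a different scale, the median was -0.252 in WT, -0.143 in *Suz12* null and -0.314 in *Lbr* null cells. No difference between zone and flank changed sign in any of these settings.

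For the 76 genes followed singly, limma kept its side of the threshold in 442 alternatives in *Suz12* null cells, missed it in 46 and newly passed it in 9. The *Lbr* null numbers were 412, 28 and 7. No called value changed sign.

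Depth per gene is unknown. Models of read counts and stricter read filters need it and were not possible, and genes with few reads have less precise ratios. *Suz12* null cells are 1 line, and line and genotype cannot be told apart. The WT pair has no replicate. The tables come from different experiments. The zone was chosen on WT silencing, so its contrast with the flanks in WT is fixed by the choice, and the lines share that WT origin. Genes without informative SNPs or enough reads are absent, as over most of the epidermal differentiation complex.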
